A study of Mus musculus with 55 samples.

Results

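The 31 genes described here encode the enzymes and regulators of cholesterol and fatty acid synthesis and were taken from the gene count table by their gene symbols. They comprise 21 sterol genes and 10 fatty acid genes, which are reported apart. All 31 were among the 16168 genes that passed the expression filter, out of 55487 Ensembl genes in the table. The tissue was the dorsal-most part of the hippocampus of adult mice, one hippocampus and one RNA-seq library per mouse, from wild-type mice (WT) and mice lacking functional Cnih3 (KO) on a C57BL/6J background. Cnih3 encodes an auxiliary subunit of AMPA-type glutamate receptors, and in the KO line exon 4 of the gene is deleted. The 55 mice fell into 10 groups: metestrus (4 WT, 5 KO), diestrus (6 WT, 6 KO), proestrus (5 WT, 4 KO), estrus (7 WT, 6 KO) and males (5 WT, 7 KO). Estrous stage was read from vaginal cytology. The mice were 10.86 to 23.71 weeks old. The parents of 39 mice, all 28 KO and 11 of the 27 WT, are labeled as a Cnih3 cross with B6, and those of the other 16 WT mice as B6 by B6.

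Cholesterol is made from acetyl-CoA. The early enzymes build mevalonate and join its isoprene units into farnesyl diphosphate, and the later enzymes turn squalene into lanosterol and strip, reduce and rearrange it to cholesterol. Fatty acid synthesis starts from the same acetyl-CoA, which acetyl-CoA carboxylase and fatty acid synthase build into palmitate, and elongases and desaturases then lengthen it and add double bonds. Transcription of the sterol genes is driven mainly by SREBP-2 (Srebf2) and that of the fatty acid genes mainly by SREBP-1c (Srebf1). These factors are held in the endoplasmic reticulum by the Insig proteins when sterols are plentiful. The brain makes its own cholesterol because plasma lipoproteins do not cross the blood-brain barrier, and astrocytes and myelin-forming oligodendrocytes are major sites of that synthesis.

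Libraries held 25881295 to 63547098 counts assigned to genes. Cnih3 itself averaged 5.31 log2 CPM (reads scaled to a common library size, on the log2 scale) in WT mice (4.44 to 5.97, n = 27) and 5.00 in KO mice (4.43 to 5.58, n = 28). Its gene-level count includes exons outside the deletion, so it is a weak check of the genotype labels. The 12 diestrus mice were not alike. WT mice 548, 549 and 569 and KO mice 532, 643, 644 and 645, 7 in all, were under 14 weeks old, as were 10 of the other 43 mice. The mean of 15 mature oligodendrocyte markers, as a deviation from each gene's mean over all mice, was -0.95 to -0.43 log2 units in those 7 mice, -0.42 to 0.27 in the 5 older diestrus mice, -0.30 to 0.45 in the 10 other mice under 14 weeks and -0.30 to 0.58 in all 43 other mice. The mean of 10 astrocyte markers was 0.16 to 0.32 in the 7 young diestrus mice, -0.17 to 0.18 in the older diestrus mice and -0.27 to 0.28 in the others. The mean of 10 neuron markers was -0.04 to 0.08 in the young diestrus mice and -0.10 to 0.15 in the 43 others. The quality weights that the study's method gives each library were 1.61 to 1.74 in the 4 young KO diestrus mice and 0.433 to 0.509 in the 2 older ones. In WT they were 0.763 to 1.14 in the young diestrus mice and 0.327 to 0.935 in the older ones. A further pair of mice stood apart in the sterol genes: KO estrus mouse 12_1, whose sterol genes averaged 0.69 log2 units above their means over all mice, and WT estrus mouse 3_2, at -0.51.

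All members were expressed in every mouse. On a per-length scale (RPKM, reads per kilobase of exon scaled to library size, means over 55 mice), Scd2, which encodes the brain's main stearoyl-CoA desaturase, was highest at 57.5 ± 11.8 (SD). Among the sterol genes the highest were Pmvk (phosphomevalonate kinase) at 39.6 ± 4.6, Hmgcs1 (HMG-CoA synthase) at 37.2 ± 8.59, Acat2 (cytosolic acetoacetyl-CoA thiolase) at 27.7 ± 4.25 and Fdft1 (squalene synthase) at 21.5 ± 4.14. Pmvk and Hmgcs1 lay within one SD of each other. Acly (ATP citrate lyase) at 20.5 ± 3.01 and Fads2 (delta-6 desaturase) at 19.1 ± 3.01 followed Scd2 among the fatty acid genes and also lay within one SD of each other. The other genes of the squalene-to-cholesterol steps ran from 11.5 ± 2.21 for Msmo1 (methylsterol monooxygenase) down to 1.34 ± 0.198 for Lss (lanosterol synthase). The length used was that of all annotated exons of a gene together, which can far exceed its longest protein-coding transcript. For Msmo1 it was 6144 against 2044 bases, for Lss 10787 against 4667, and for Fdft1 4227 against 3698. The order of genes by RPKM depends on that choice, and RPKM by transcript length was not computed. The lowest value was that of Fdps (farnesyl diphosphate synthase), 0.418 ± 0.116, and its level is uncertain: 91.4% of its reference transcript matched 6 other annotated genes at 95% identity or more, and the counts hold uniquely aligned reads only. For the same reason the levels of Acat2 (65.6% of the transcript matched, in part by Tcp1, which overlaps it), Acaca (64.3%), Fdft1 (54.7%) and Idi1 (33.3%) may be understated. The library kit does not mark strand, so reads in the stretch that Acat2 shares with the overlapping Tcp1 cannot be assigned to either gene.

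The reference promoters of 5 genes on which the stage comparisons turn are shown first, because SREBP-2 acts with the factor NF-Y through sterol response elements and CCAAT boxes near the start of sterol genes. They come from RefSeq (GRCm38.p6), each from 250 bases before to 50 bases after the annotated start and written along the gene's strand. Capitals mark the sterol response element core CACCCCAC and the CCAAT box CCAAT, or its reverse complement ATTGG. In the stage pairs given further on, Hmgcs1 (chr13:119690101-119690400, + strand) was higher in KO diestrus and KO metestrus than in KO proestrus. Acat2 (chr17:12960676-12960975, - strand) and Nsdhl (chrX:72918271-72918570, + strand) were higher in diestrus in pairs of both genotypes. Ebp (chrX:8193463-8193762, - strand) was lower in KO diestrus than in KO proestrus and KO metestrus. Tm7sf2 (chr19:6067801-6068100, - strand) was lower in KO diestrus than in KO proestrus only, and its KO diestrus level was close to those of KO metestrus and KO estrus.
Hmgcs1: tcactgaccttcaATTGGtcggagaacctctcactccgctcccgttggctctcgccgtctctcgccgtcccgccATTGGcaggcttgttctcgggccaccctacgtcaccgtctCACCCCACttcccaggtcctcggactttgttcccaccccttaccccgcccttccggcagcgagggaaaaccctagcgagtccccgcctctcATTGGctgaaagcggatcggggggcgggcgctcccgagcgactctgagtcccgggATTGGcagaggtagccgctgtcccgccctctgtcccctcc
Acat2: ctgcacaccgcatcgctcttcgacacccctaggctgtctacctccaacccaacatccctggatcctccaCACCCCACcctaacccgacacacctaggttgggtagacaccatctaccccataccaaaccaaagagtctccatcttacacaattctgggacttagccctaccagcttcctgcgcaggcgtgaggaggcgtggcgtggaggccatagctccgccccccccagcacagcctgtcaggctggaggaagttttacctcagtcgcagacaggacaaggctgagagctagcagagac
Nsdhl: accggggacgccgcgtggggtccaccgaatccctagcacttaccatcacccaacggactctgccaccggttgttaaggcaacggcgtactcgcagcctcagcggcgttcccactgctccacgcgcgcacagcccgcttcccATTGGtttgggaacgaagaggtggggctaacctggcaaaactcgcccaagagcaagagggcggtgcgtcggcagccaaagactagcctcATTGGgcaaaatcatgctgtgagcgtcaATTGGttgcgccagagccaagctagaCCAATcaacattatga
Ebp: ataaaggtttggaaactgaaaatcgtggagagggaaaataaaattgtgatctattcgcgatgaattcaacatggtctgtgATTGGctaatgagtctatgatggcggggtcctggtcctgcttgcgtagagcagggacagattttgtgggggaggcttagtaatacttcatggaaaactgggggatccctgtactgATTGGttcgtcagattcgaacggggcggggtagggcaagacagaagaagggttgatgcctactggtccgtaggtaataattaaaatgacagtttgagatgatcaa
Tm7sf2: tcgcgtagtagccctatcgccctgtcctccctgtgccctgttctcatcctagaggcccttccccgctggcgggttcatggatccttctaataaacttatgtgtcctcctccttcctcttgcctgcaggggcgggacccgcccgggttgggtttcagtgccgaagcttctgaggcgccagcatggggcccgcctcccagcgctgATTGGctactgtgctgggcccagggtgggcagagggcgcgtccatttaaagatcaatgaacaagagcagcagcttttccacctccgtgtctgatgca

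A RefSeq window was at hand for 24 of the 31 members, 17 sterol and 7 fatty acid genes. Counting both strands, the core CACCCCAC was in 2.87% of all 32851 windows and in those of 2 members, Hmgcs1 and Acat2. CCAAT was in 37.4% of all windows, in 16 of the 17 sterol genes and in 4 of the 7 fatty acid genes. The GC box GGGCGG was in 35.7% of all windows and again in 16 of 17 and 4 of 7. The motifs were counted separately, and matches of different motifs may overlap. The windows of Nsdhl, Ebp and Tm7sf2 held CCAAT and no exact core, whether the gene was called higher or lower in its pairs with diestrus. That of Acat2 held a core and no CCAAT. Such letters describe the windows and mark no binding.

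The study first asked how expression in females differs between stages. Among WT females, 11 of the 31 genes were differentially expressed (a false discovery rate, FDR, under 0.05) in at least 1 of the 6 stage pairs (35.5%), 8 sterol and 3 fatty acid genes, beside 30.6% of all genes tested. Among KO females the count was 19 (61.3%), 14 sterol and 5 fatty acid genes, beside 46.2% of all genes. In WT every one of these calls was in a pair that included diestrus, and in KO all but 3 were. The sterol genes did not move as a block: Hmgcs1, Idi1, Acat2, Mvk, Mvd, Fdft1 and Nsdhl were each higher in diestrus in one or more pairs, whereas Ebp, Tm7sf2, Sc5d, Dhcr7 and Insig1 were lower. Among the fatty acid genes Srebf1, Scd2, Elovl6 and Acaca were lower in diestrus in one or more pairs and Acly and Fads1 higher in one each. In tissue lysates of this kind, fewer cells of a type and less RNA per cell cannot be told apart.

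**Figure D1:**
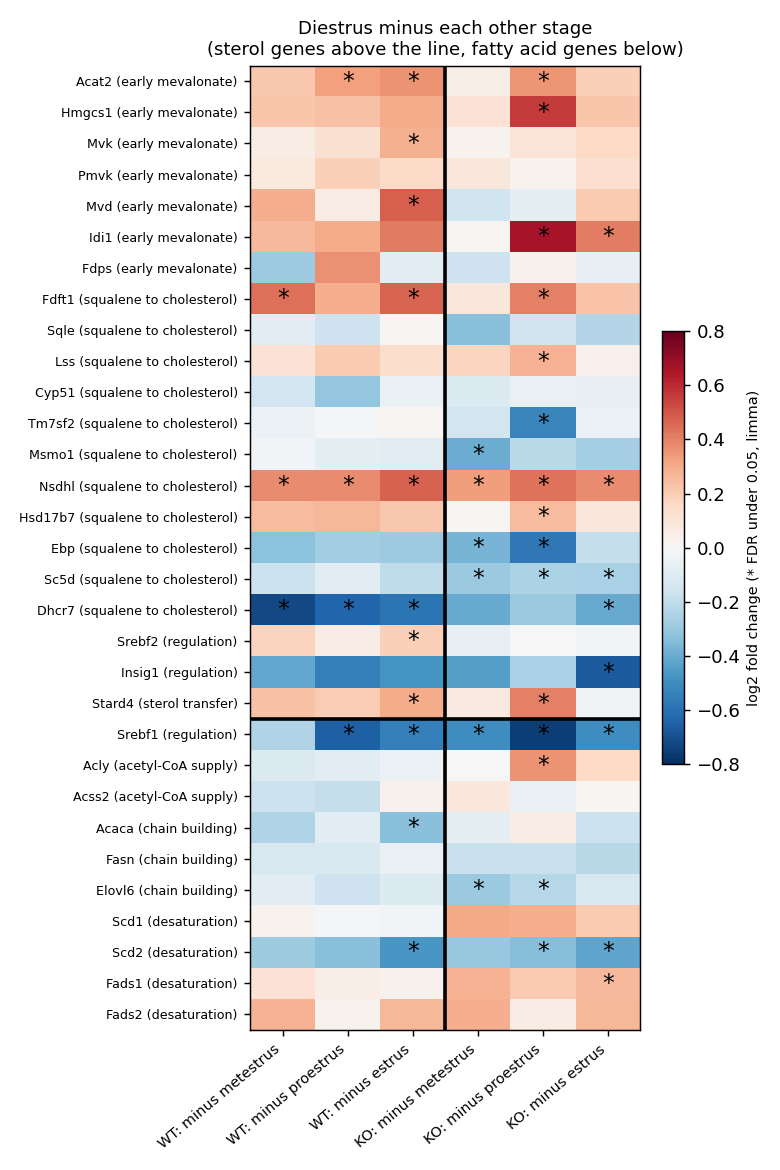
Each cell gives the limma log2 fold change of diestrus minus another stage for 1 gene (rows, with its role) in WT (left 3 columns) or KO (right 3 columns), colored from -0.8 to 0.8, and an asterisk marks FDR under 0.05. Nsdhl is red with an asterisk in all 6 columns, Srebf1 and Dhcr7 are blue throughout, and the early mevalonate genes at the top are mostly red.

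In WT diestrus against WT estrus, 7 sterol genes were higher and 1 lower, beside 9.05% and 13.1% of all genes (22.1% in both directions). None of the fatty acid genes was higher and 3 were lower. The median log2 fold change (log2FC) was 0.15 over the sterol genes, -0.05 over the fatty acid genes and -0.01 over all genes. In WT diestrus against WT proestrus, 2 sterol genes were higher and 1 lower, and 1 fatty acid gene was lower, beside 2.67% and 7% of all genes (9.66% in both directions), and the medians were 0.12 and -0.11 (all genes, -0.03). In WT metestrus against diestrus 2 sterol genes were lower in metestrus and 1 higher, beside 7.24% of all genes. In the WT pairs without diestrus no member was called by limma, edgeR or DESeq2, and with limma 2, 3 and 5 members had an unadjusted p under 0.05 in metestrus against proestrus, metestrus against estrus and proestrus against estrus.

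In KO diestrus against KO proestrus, 8 sterol genes were higher and 3 lower, and 1 fatty acid gene was higher and 3 lower, beside 14.9% and 19.4% of all genes (34.3% in both directions). The medians were 0.03 over the sterol genes, 0.00 over the fatty acid genes and -0.03 over all genes. In KO diestrus against KO estrus, 2 sterol genes were higher and 3 lower and 1 fatty acid gene was higher and 2 lower, beside 11.3% and 19.3% of all genes (30.7% in both directions), with medians of -0.02 and -0.06 (all genes, -0.01). In KO metestrus against diestrus the calls were 3 sterol genes higher and 1 lower in metestrus and 2 fatty acid genes higher, beside 10.4% of all genes. KO metestrus against proestrus was the one pair without diestrus that held calls, all 3 higher in metestrus (Hmgcs1, Idi1 and Acly), beside 4.37% of all genes. In KO metestrus against estrus and proestrus against estrus no member was called by limma, edgeR or DESeq2, and 3 and 6 members had an unadjusted p under 0.05 with limma.

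Values for the first steps of the pathway come next. All 7 early mevalonate genes had positive values in WT diestrus against proestrus (median 0.23, 1 called) and 6 of 7 did in WT diestrus against estrus (median 0.29, 3 called), KO diestrus against proestrus (median 0.11, 3 called) and KO diestrus against estrus (median 0.19, 1 called). None was called against metestrus, where the metestrus minus diestrus values were positive for 1 of 7 in WT (median -0.22) and for 2 of 7 in KO (median -0.03). Hmgcs1, which makes HMG-CoA, is the first of them to be set out by mouse. Its log2 CPM in WT was 7.21, 7.37, 7.44 and 7.63 in metestrus, 7.25 to 7.81 (median 7.64) in diestrus, 6.72, 7.17, 7.36, 7.50 and 7.72 in proestrus, 6.68 to 7.63 (median 7.38) in estrus and 7.14, 7.18, 7.40, 7.59 and 7.87 in males. In KO it was 7.51, 7.60, 7.68, 7.74 and 7.76 in metestrus, 7.55 to 7.89 (median 7.73) in diestrus, 7.00, 7.18, 7.28 and 7.29 in proestrus, 7.37 to 8.68 (median 7.50) in estrus and 6.78 to 7.74 (median 7.49) in males. Every KO mouse in diestrus or metestrus lay above every KO mouse in proestrus, and the WT groups overlapped. For this and the other genes given by mouse, the share of all genes without overlap between the same groups was not computed. The genes were chosen by their smallest FDR over these stage pairs, so a lack of overlap is no separate support. The difference between KO diestrus and proestrus was 0.56 ± 0.12 log2 units (SE), 1.47-fold (FDR = 0.000477), and that between KO metestrus and proestrus 0.44 ± 0.13 (FDR = 0.0423). Males overlapped every stage of their genotype.

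Idi1, isopentenyl diphosphate isomerase, was likewise lowest in proestrus among the KO groups. Its log2 CPM in KO was 4.20, 4.21, 4.31, 4.34 and 4.59 in metestrus, 4.03 to 4.62 (median 4.29) in diestrus, 3.27, 3.65, 3.72 and 4.00 in proestrus, 3.45 to 5.32 (median 3.98) in estrus and 3.49 to 4.23 (median 4.10) in males. In WT it was 3.57, 3.82, 4.03 and 4.03 in metestrus, 3.61 to 4.39 (median 4.16) in diestrus, 1.31, 3.56, 3.79, 4.16 and 4.29 in proestrus, 3.40 to 3.85 (median 3.77) in estrus and 3.65, 3.75, 3.93, 4.05 and 4.46 in males. KO proestrus lay below KO diestrus and KO metestrus without overlap, and the low WT proestrus value belonged to mouse 8_2 alone. Idi1 was 1.58-fold higher in KO diestrus than in proestrus (log2FC 0.66 ± 0.17, FDR = 0.00196), 1.33-fold higher than in estrus (0.41 ± 0.15, FDR = 0.0379), and 1.56-fold higher in KO metestrus than in proestrus (0.64 ± 0.18, FDR = 0.0335).

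Acat2, which condenses acetyl-CoA units into acetoacetyl-CoA, had log2 CPM in WT of 5.94, 6.19, 6.22 and 6.29 in metestrus, 5.91 to 6.50 (median 6.39) in diestrus, 5.58, 5.80, 6.04, 6.13 and 6.43 in proestrus, 5.81 to 6.16 (median 6.01) in estrus and 6.04, 6.04, 6.05, 6.50 and 6.54 in males. In KO the values were 6.25, 6.33, 6.39, 6.43 and 6.51 in metestrus, 6.17 to 6.50 (median 6.42) in diestrus, 5.99, 6.06, 6.14 and 6.21 in proestrus, 6.01 to 6.90 (median 6.27) in estrus and 6.15 to 6.45 (median 6.29) in males. Acat2 was called higher in WT diestrus than in estrus (1.29-fold, log2FC 0.36 ± 0.09, FDR = 0.00494) and proestrus (0.33 ± 0.10, FDR = 0.0387), and in KO diestrus than in proestrus (0.35 ± 0.09, FDR = 0.00264). The WT diestrus group was split, with mouse 2_2 at the bottom of all WT diestrus values and the 3 young mice together at its top. Among the rest of the early genes, Mvk (mevalonate kinase, 0.28 ± 0.11, FDR = 0.0461) and Mvd (mevalonate diphosphate decarboxylase, 0.47 ± 0.14, FDR = 0.0137) were higher in WT diestrus than in estrus, and Pmvk and Fdps were not called in any stage pair.

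**Figure D2:**
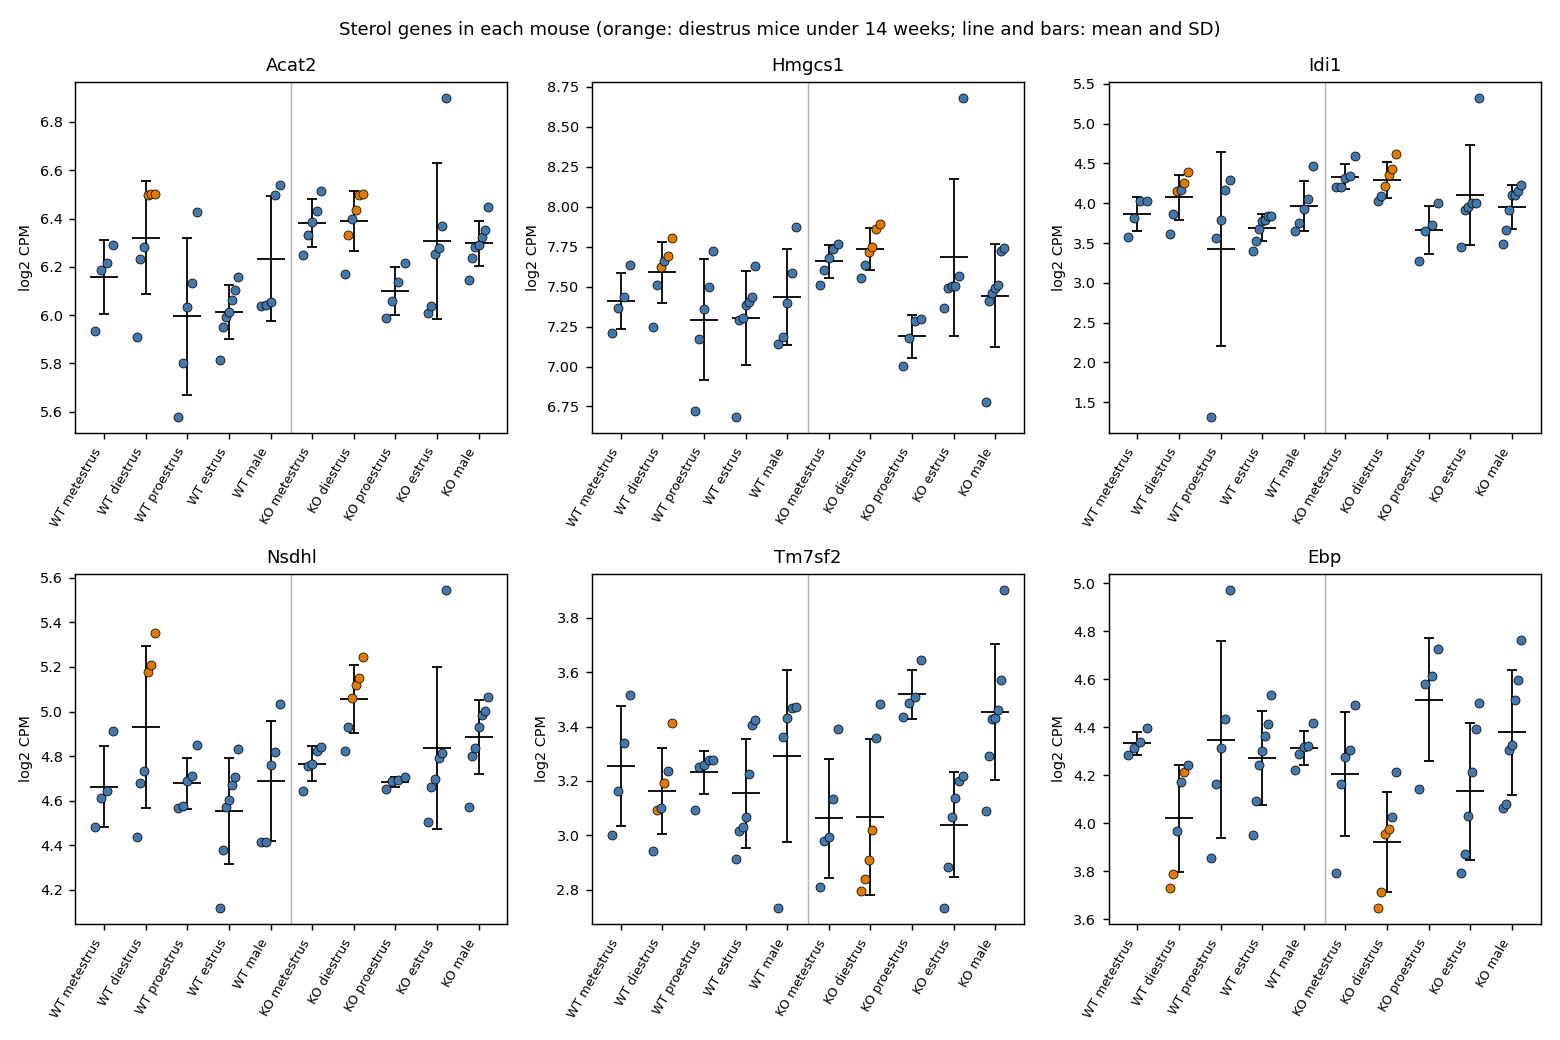
Each point is 1 mouse and gives the log2 CPM of 1 sterol gene (6 panels) in the 10 groups, orange for the 7 diestrus mice under 14 weeks, with the group mean and SD. KO estrus mouse 12_1 is the isolated high point for Hmgcs1 (8.68), Idi1 (5.32) and Nsdhl (5.55), and the orange points for Nsdhl all lie at 5.06 or above.

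The squalene-to-cholesterol genes split. Of 11, 4 were higher and 3 lower in KO diestrus than in proestrus (median -0.16), and 2 were higher and 1 lower in WT diestrus than in estrus (median 0.01). Nsdhl, a sterol C4 decarboxylase, was called higher in diestrus in all 6 stage pairs with diestrus. Its log2 CPM in WT was 4.48, 4.61, 4.64 and 4.91 in metestrus, 4.44 to 5.35 (median 4.96) in diestrus, 4.57, 4.58, 4.69, 4.71 and 4.85 in proestrus, 4.12 to 4.83 (median 4.60) in estrus and 4.41, 4.42, 4.76, 4.82 and 5.04 in males. In KO it was 4.64, 4.76, 4.76, 4.82 and 4.84 in metestrus, 4.83 to 5.24 (median 5.09) in diestrus, 4.65, 4.69, 4.69 and 4.71 in proestrus, 4.51 to 5.55 (median 4.74) in estrus and 4.57 to 5.07 (median 4.93) in males. The KO diestrus values lay above all KO proestrus values, and the 3 young WT diestrus mice lay above every other WT mouse, with the 3 older ones inside the range of the other stages. The log2FC of diestrus against estrus was 0.47 ± 0.11 in WT (1.38-fold, FDR = 0.00299) and 0.38 ± 0.11 in KO (FDR = 0.00652), and that against proestrus was 0.38 ± 0.13 in WT (FDR = 0.0483) and 0.43 ± 0.11 in KO (FDR = 0.00241).

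Ebp, the sterol isomerase that moves the ring double bond, went the other way in KO. Its log2 CPM in KO was 3.79, 4.17, 4.28, 4.30 and 4.49 in metestrus, 3.65 to 4.21 (median 3.97) in diestrus, 4.14, 4.58, 4.61 and 4.72 in proestrus, 3.79 to 4.50 (median 4.12) in estrus and 4.07 to 4.76 (median 4.33) in males. In WT it was 4.29, 4.31, 4.34 and 4.40 in metestrus, 3.73 to 4.25 (median 4.07) in diestrus, 3.86, 4.17, 4.31, 4.43 and 4.97 in proestrus, 3.95 to 4.53 (median 4.30) in estrus and 4.22, 4.29, 4.32, 4.32 and 4.42 in males. WT diestrus lay wholly below WT metestrus, whereas KO diestrus overlapped KO proestrus through mice 2592 and 12_5. Ebp was 0.674-fold in KO diestrus relative to proestrus (log2FC -0.57 ± 0.13, FDR = 0.000576) and was higher in KO metestrus than in diestrus (0.37 ± 0.13, FDR = 0.0451).

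Tm7sf2, a sterol C14 reductase, had log2 CPM in KO of 2.81, 2.98, 3.00, 3.13 and 3.39 in metestrus, 2.79 to 3.48 (median 2.96) in diestrus, 3.43, 3.49, 3.51 and 3.65 in proestrus, 2.73 to 3.22 (median 3.10) in estrus and 3.09 to 3.90 (median 3.43) in males. In WT the values were 3.00, 3.16, 3.34 and 3.52 in metestrus, 2.94 to 3.41 (median 3.15) in diestrus, 3.09, 3.25, 3.26, 3.28 and 3.28 in proestrus, 2.91 to 3.43 (median 3.07) in estrus and 2.73, 3.36, 3.43, 3.47 and 3.47 in males. KO proestrus lay above KO metestrus and KO estrus without overlap and above all KO diestrus mice but 7_1, and the WT stages overlapped. Only the KO diestrus against proestrus pair was called (0.693-fold, log2FC -0.53 ± 0.12, FDR = 0.000674).

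Of the other late genes, Fdft1, which commits farnesyl units to sterols, was higher in WT diestrus than in estrus (0.47 ± 0.12, FDR = 0.00422), in KO diestrus than in proestrus (0.40 ± 0.12, FDR = 0.00631), and in WT diestrus than in metestrus (metestrus minus diestrus, -0.44 ± 0.13, FDR = 0.0283). Dhcr7, the 7-dehydrocholesterol reductase, was lower in diestrus in 4 pairs, and its log2FC of WT metestrus against diestrus, 0.72 ± 0.18 (1.65-fold, FDR = 0.0133), was the widest of all called stage differences after KO Srebf1. Sc5d, a sterol desaturase, was lower in diestrus in all 3 KO pairs, with log2FC of -0.26 ± 0.10 against proestrus and estrus alike. Lss (0.28 ± 0.11, FDR = 0.0371) and Hsd17b7, a sterol ketoreductase (0.26 ± 0.10, FDR = 0.0375), were higher in KO diestrus than in proestrus, Msmo1 was higher in KO metestrus than in diestrus (0.40 ± 0.12, FDR = 0.0254), and Sqle (squalene epoxidase) and Cyp51 (lanosterol demethylase) were not called in any stage pair.

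Of the regulators, Srebf2 was 1.14-fold higher in WT diestrus than in estrus (log2FC 0.19 ± 0.07, FDR = 0.0421), and Insig1, itself induced by SREBPs, was 0.63-fold in KO diestrus relative to estrus (-0.67 ± 0.20, FDR = 0.012). Stard4, a cytosolic sterol carrier, was higher in WT diestrus than in estrus (0.30 ± 0.11, FDR = 0.0475) and in KO diestrus than in proestrus (0.41 ± 0.11, FDR = 0.00373). Averaged over all 21 sterol genes, these opposite movements left little between the stages: as a deviation from each gene's mean over all mice, the WT list averages were -0.04 ± 0.11 (SD, metestrus, n = 4), -0.03 ± 0.07 (diestrus, n = 6), -0.11 ± 0.14 (proestrus, n = 5) and -0.13 ± 0.17 (estrus, n = 7). The KO averages were 0.10 ± 0.07 (metestrus, n = 5), 0.03 ± 0.05 (diestrus, n = 6), -0.01 ± 0.09 (proestrus, n = 4) and 0.11 ± 0.29 (estrus, n = 6). Every group overlapped the others of its genotype.

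**Figure D3:**
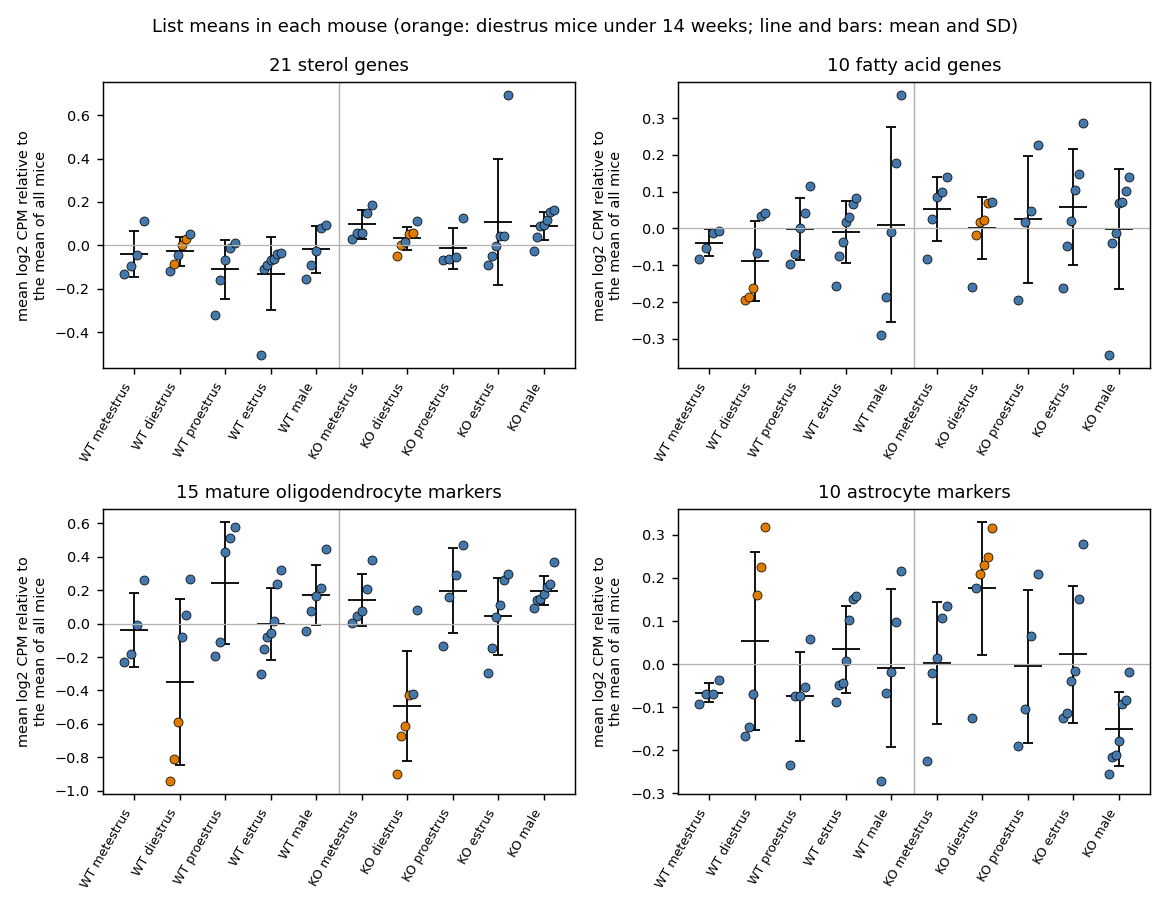
Each point is 1 mouse and gives the mean deviation, in log2 CPM, of the 21 sterol genes, the 10 fatty acid genes, 15 mature oligodendrocyte markers or 10 astrocyte markers from their means over all mice, with the group mean and SD and the 7 young diestrus mice in orange. The orange points are the lowest oligodendrocyte values, -0.95 to -0.43, and lie within the range of the other mice for the sterol genes.

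Among the fatty acid genes, Srebf1, the factor that drives lipogenic genes, changed most. Its log2 CPM in WT was 3.72, 3.77, 3.92 and 4.04 in metestrus, 3.16 to 4.13 (median 3.77) in diestrus, 3.92, 4.00, 4.36, 4.39 and 4.50 in proestrus, 3.96 to 4.34 (median 4.20) in estrus and 3.86, 3.87, 4.19, 4.44 and 4.72 in males. In KO it was 3.66, 3.94, 4.06, 4.21 and 4.29 in metestrus, 3.28 to 4.02 (median 3.68) in diestrus, 4.14, 4.20, 4.21 and 4.59 in proestrus, 3.34 to 4.42 (median 4.06) in estrus and 3.92 to 4.42 (median 4.27) in males. All KO diestrus mice lay below all KO proestrus mice, and among WT mice the 3 young diestrus animals were the lowest of all. Srebf1 was 0.593-fold in KO diestrus relative to proestrus (log2FC -0.75 ± 0.14, FDR = 4.5e-05), 0.71-fold relative to estrus (-0.49 ± 0.13, FDR = 0.00473), 0.637-fold in WT diestrus relative to proestrus (-0.65 ± 0.16, FDR = 0.00854) and 0.686-fold relative to WT estrus (-0.54 ± 0.14, FDR = 0.00584). KO metestrus exceeded KO diestrus by 0.50 ± 0.13 (FDR = 0.0119), so that 5 of the 6 stage pairs with diestrus were called.

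Acly, which supplies cytosolic acetyl-CoA to both pathways, moved in the opposite direction in KO. Its log2 CPM in KO was 6.78, 6.97, 7.10, 7.11 and 7.23 in metestrus, 6.79 to 7.18 (median 6.97) in diestrus, 6.42, 6.62, 6.71 and 6.74 in proestrus, 6.81 to 7.25 (median 6.83) in estrus and 6.27 to 7.00 (median 6.82) in males. In WT it was 6.65, 6.80, 7.04 and 7.05 in metestrus, 6.67 to 7.14 (median 6.75) in diestrus, 6.38, 6.65, 6.90, 6.95 and 7.00 in proestrus, 6.65 to 7.10 (median 6.84) in estrus and 6.62, 6.70, 6.74, 6.98 and 7.17 in males. The 4 KO proestrus mice lay below all KO females of the other stages, and the WT groups overlapped. The gene was 1.28-fold higher in KO diestrus than in proestrus (log2FC 0.36 ± 0.10, FDR = 0.00325) and in KO metestrus than in proestrus (0.35 ± 0.10, FDR = 0.0378). Acss2, which makes acetyl-CoA from acetate, was not called in any stage pair.

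Of the chain-building genes, Elovl6, the elongase that takes palmitate to stearate, had log2 CPM in KO of 6.07, 6.11, 6.18, 6.19 and 6.24 in metestrus, 5.69 to 6.18 (median 5.86) in diestrus, 5.95, 6.06, 6.12 and 6.16 in proestrus, 5.89 to 6.32 (median 5.98) in estrus and 5.92 to 6.08 (median 6.03) in males. In WT the values were 5.78, 5.91, 6.09 and 6.09 in metestrus, 5.66 to 6.12 (median 5.93) in diestrus, 5.74, 5.95, 6.00, 6.06 and 6.16 in proestrus, 5.92 to 6.05 (median 5.95) in estrus and 5.80, 5.82, 6.03, 6.04 and 6.25 in males. KO diestrus was low apart from mouse 7_1, and WT diestrus again divided into 3 low young mice and 3 older mice within the range of the other WT mice. KO metestrus exceeded diestrus by 0.30 ± 0.07 (FDR = 0.00369), and the log2FC of KO diestrus against proestrus was -0.23 ± 0.07 (FDR = 0.0133). Acaca (acetyl-CoA carboxylase) was lower in WT diestrus than in estrus (-0.33 ± 0.11, FDR = 0.0246), and Fasn (fatty acid synthase) was not called in any stage pair.

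Scd2 had log2 CPM in WT of 8.15, 8.26, 8.35 and 8.59 in metestrus, 7.77 to 8.71 (median 8.11) in diestrus, 8.17, 8.35, 8.38, 8.44 and 8.47 in proestrus, 8.19 to 8.77 (median 8.46) in estrus and 7.85, 8.02, 8.41, 8.56 and 9.08 in males. In KO it was 8.09, 8.39, 8.46, 8.50 and 8.83 in metestrus, 7.92 to 8.57 (median 8.17) in diestrus, 8.18, 8.37, 8.45 and 8.71 in proestrus, 8.16 to 9.07 (median 8.56) in estrus and 7.95 to 8.50 (median 8.38) in males. The KO groups overlapped, and WT diestrus held both the 3 lowest WT females and, in mouse 2_2, one of the highest. Scd2 was lower in diestrus than in estrus in WT (0.723-fold, log2FC -0.47 ± 0.13, FDR = 0.00983) and KO (0.745-fold, -0.43 ± 0.13, FDR = 0.00939) and lower in KO diestrus than in proestrus (-0.34 ± 0.13, FDR = 0.0406). Fads1 (delta-5 desaturase) was 1.2-fold higher in KO diestrus than in estrus (0.26 ± 0.10, FDR = 0.0406), while Scd1 and Fads2 were not called in any stage pair.

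**Figure D4:**
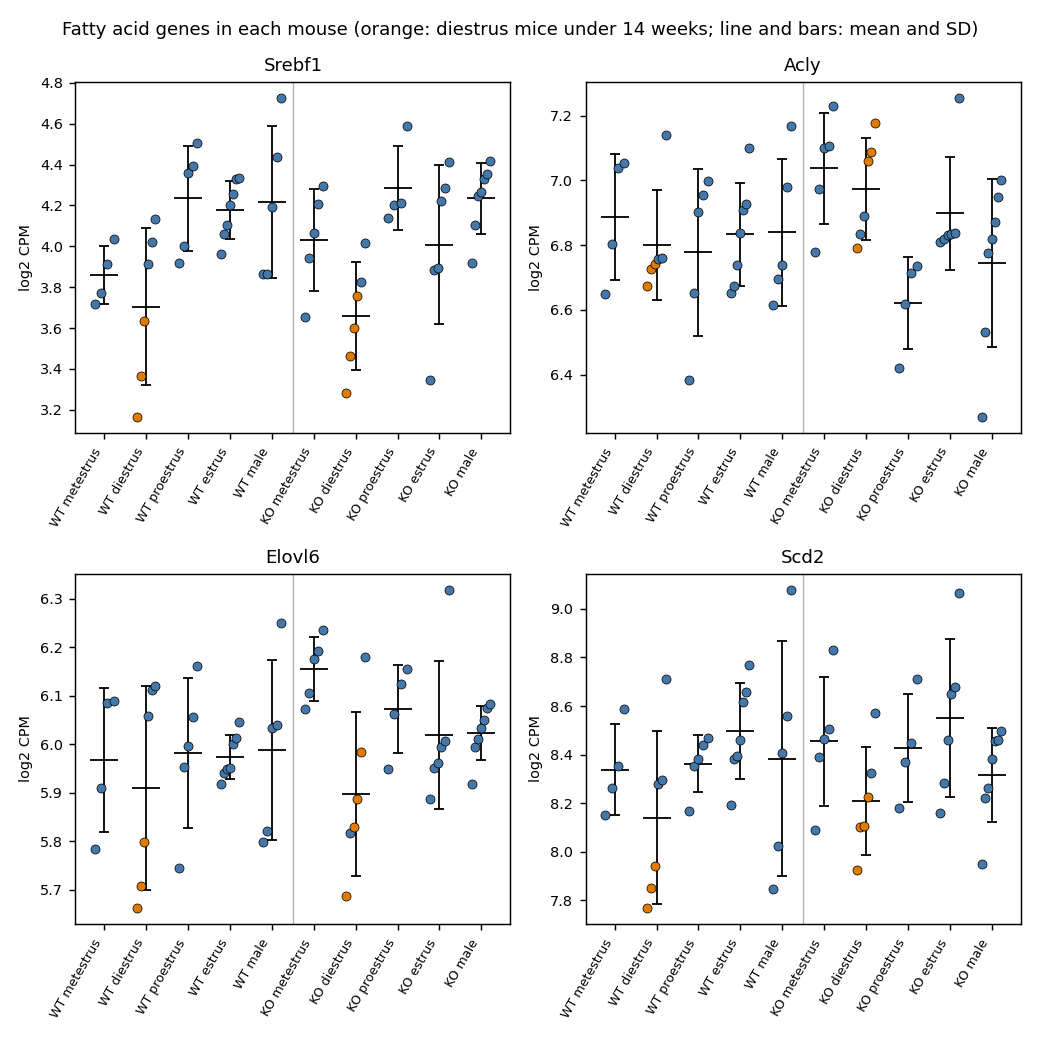
Each point is 1 mouse and gives the log2 CPM of 1 fatty acid gene (4 panels) in the 10 groups, orange for the 7 diestrus mice under 14 weeks, with the group mean and SD. For Srebf1 the orange points span 3.16 to 3.76 and the older diestrus mice 3.83 to 4.13, and for Acly the 4 KO proestrus mice are the lowest KO females.

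The diestrus calls were not kept without the diestrus mice under 14 weeks. The 7 young diestrus mice did not overlap the 5 older diestrus mice for 7 of the 31 members, beside 14.4% of all genes: Nsdhl (5.06 to 5.35 against 4.44 to 4.93), Fdft1 and Fads2 were higher in the young mice, and Sc5d, Dhcr7 (3.42 to 4.68 against 4.86 to 5.12), Srebf1 (3.16 to 3.76 against 3.83 to 4.13) and Scd2 (7.77 to 8.23 against 8.28 to 8.71) were lower. Against the 10 other mice under 14 weeks, the young diestrus mice had no member without overlap (3.67% of all genes), and neither did the older diestrus mice against the 33 other mice of 14 weeks or more (0% of all genes). With the 7 young diestrus mice left out, no member was called in any stage pair with diestrus, and 2 were called between KO stages (metestrus against proestrus). That fit kept 3 WT and 2 KO diestrus mice, and the 2 KO mice had quality weights of 0.433 and 0.509 in the main fit. It cannot tell the loss of the young mice from the smaller number of mice. With age in weeks as a covariate, 3 members were called between WT stages and 11 between KO stages. Mature oligodendrocyte markers fell in the same pairs: 12 of 15 were lower in WT diestrus than in proestrus, 9 of 15 than in WT estrus, 12 of 15 in KO diestrus than in proestrus and 11 of 15 than in KO estrus, with medians of -0.89, -0.54, -0.87 and -0.62. Of 8 microglia markers 5 were lower in KO diestrus than in proestrus (median -0.40), and of 10 astrocyte markers 3 were higher and 1 lower (median 0.08). With the mean of the 15 mature oligodendrocyte markers as a covariate, no member was called between WT stages and 1, Acly, between KO stages. In WT, parental breeding varied with stage as well. Of the WT diestrus mice, 4 of 6 had Cnih3-cross parents, among them the young mice 548, 549 and 569. In WT metestrus, proestrus and estrus it was 1 of 4, 1 of 5 and 1 of 7. The parts of age, of oligodendrocyte content, of stage and, in WT, of parental breeding in the member differences cannot be told apart among these diestrus mice.

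The test also set the number of calls. The edgeR quasi-likelihood test on the counts called no member between WT stages (2 to 12 members per diestrus pair had an unadjusted p under 0.05) and Ebp and Srebf1 between KO stages. Of all 16168 genes, edgeR called 0, 1 and 2 in WT diestrus against metestrus, proestrus and estrus, and 1353 in KO diestrus against proestrus. The lack of member calls in those WT pairs is therefore not particular to these genes. DESeq2 called no member between WT stages and 6 between KO stages, Hmgcs1, Tm7sf2, Ebp, Stard4, Srebf1 and Acly, all in KO diestrus against proestrus. Without quality weights, limma called no member between WT stages and 4 between KO stages. The calls between WT stages also rested on single mice: without WT diestrus mouse 548, 549 or 569 no member was called, and without mouse 2_2, 8_1 or 380_4 the count was 19, 21 and 22. Each of the 10 genes given by mouse was followed in 1 pair and kept its sign there under all of these settings: Nsdhl, Acat2 and Scd2 in WT diestrus against estrus, Elovl6 in KO metestrus against diestrus, and the other 6 in KO diestrus against proestrus. Each pair was the one with the gene's smallest p in these same mice, so a kept sign was likely beforehand and is no separate support. Under the settings other than leaving out 1 mouse, 44 of 100 of these gene results were no longer called.

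Comparing females with males, no member was called between any WT stage and WT males, beside 0.0866% of all genes (smallest FDR 0.0997). An unadjusted p under 0.05 was reached with limma by 5 members for diestrus, 2 for metestrus, 1 for estrus and 0 for proestrus, and edgeR and DESeq2 called none. The limma count of called members rose without single WT males, to 9 without 1949, 8 without 19_1 and 6 without 2015. It rose to 6, 7 and 3 without WT diestrus mice 2_2, 8_1 and 380_4. In KO, 9 members were called between a stage and males, 6 sterol and 3 fatty acid genes, beside 33.6% of all genes. All 9 were called in diestrus against males, where 6 sterol genes and 2 fatty acid genes were lower and 1 fatty acid gene higher, beside 18% and 10.7% of all genes (28.7% in both directions). The 6 sterol genes, all of the squalene-to-cholesterol steps, were Dhcr7 (-0.49 ± 0.13, FDR = 0.00416), Ebp (-0.46 ± 0.11, FDR = 0.00187), Tm7sf2 (-0.45 ± 0.11, FDR = 0.00131), Msmo1 (-0.40 ± 0.11, FDR = 0.00455), Sqle (-0.34 ± 0.12, FDR = 0.0277) and Sc5d (-0.22 ± 0.09, FDR = 0.0487). None of the 7 early mevalonate genes was called in that comparison, and their median was 0.10 against -0.22 for the 11 later genes. Srebf1 (0.618-fold, -0.69 ± 0.12, FDR = 2.53e-05) and Elovl6 (-0.17 ± 0.06, FDR = 0.0395) were lower and Scd1, a stearoyl-CoA desaturase, was 1.31-fold higher (0.38 ± 0.11, FDR = 0.00655) in KO diestrus than in KO males. Tm7sf2 was also lower in KO estrus than in males (-0.40 ± 0.11, FDR = 0.0217), the sole member called there, beside 7.66% of all genes. The KO males were 18.29 to 23.71 weeks old, 13 of 15 mature oligodendrocyte markers were lower in KO diestrus than in KO males, and with age as a covariate none of the 9 members was called.

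The study next compared KO with WT mice. Within a stage or males, 1 member was called, beside 0.476% of all genes: Stard4, in estrus. Its log2 CPM was 3.16 to 3.80 (median 3.73) in WT estrus and 3.92 to 4.96 (median 4.09) in KO estrus, and the groups did not overlap. The share of all genes without overlap between these groups was not computed. By FDR, 0.179% of all genes were called in that comparison. Stard4 was 1.34-fold higher in KO (log2FC 0.43 ± 0.10, FDR = 0.0497). This FDR lay at the threshold, and the call was lost in 34 of 55 fits that each left out 1 mouse and in the fit without KO estrus mouse 12_1 and WT estrus mouse 3_2. Stard4 was also called in estrus by edgeR (log2FC 0.59, adjusted p = 0.0271) and DESeq2 (0.59, adjusted p = 0.00459). In metestrus, diestrus, proestrus and males, 11, 4, 1 and 2 members had an unadjusted p under 0.05 and none was called by limma, edgeR or DESeq2.

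Averaged over the 5 KO groups against the 5 WT groups, 3 members were called, all higher in KO, beside 3.4% of all genes. They were Acss2 (1.12-fold, log2FC 0.16 ± 0.04, FDR = 0.0212), Stard4 (1.14-fold, 0.19 ± 0.05, FDR = 0.0274) and Hsd17b7 (1.11-fold, 0.15 ± 0.05, FDR = 0.0473). The values were positive for 18 of 21 sterol and 10 of 10 fatty acid genes, with medians of 0.10 and 0.07, beside 48.6% of all genes positive and a median of 0.00. Within strata, 18 of 21 sterol genes were positive in metestrus and estrus, 14 in diestrus, 15 in proestrus and 20 in males. The medians over all genes there were -0.01 to 0.01, and the share of all genes positive was not computed within strata. These strata make up the average above and are no separate support. The estrus count includes KO mouse 12_1 and WT mouse 3_2, whose sterol means of 0.69 and -0.51 both raise KO minus WT. None of the 3 was called with edgeR, DESeq2, age as a covariate or without the young diestrus mice, and without KO proestrus mouse 12_5 no member was called. The KO mice all had Cnih3-cross parents and most WT mice did not. Among mice of Cnih3-cross parents alone, 3 WT stages held a single mouse each, so calls from that subset are not given. Genotype and parental breeding are therefore partly confounded in this comparison.

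**Figure D5:**
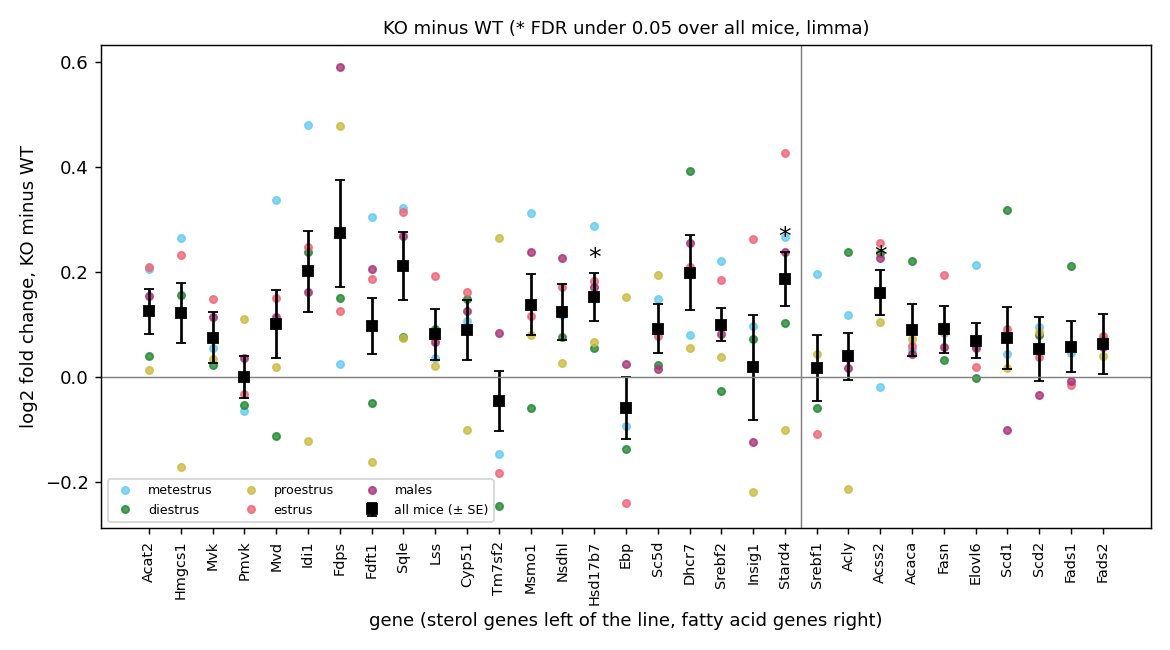
The black squares give the log2 fold change of all KO minus all WT mice with its SE for each of the 31 genes, and the colored points give the same difference within each stage and in males. Asterisks mark Hsd17b7, Stard4 and Acss2 (FDR under 0.05), and the squares lie above 0 for 18 of 21 sterol and 10 of 10 fatty acid genes.

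The design also allows the stage differences themselves to be compared between genotypes. No member differed in any of the 6 stage pairs or the 4 stage-to-male differences, beside 0% of all genes, with the smallest FDR, 0.124, for Stard4 in proestrus against estrus (KO minus WT of the difference, -0.53 ± 0.16). An unadjusted p under 0.05 was reached by 0 to 6 members per comparison with limma and 0 to 4 with edgeR, and edgeR and DESeq2 called none. The larger count of calls in KO than in WT females is therefore not shown to be a difference between genotypes. For Acly, the difference between genotypes in diestrus against proestrus was 0.45 ± 0.14 (FDR = 0.313), and for Tm7sf2 it was -0.51 ± 0.19 (FDR = 0.315).

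KO estrus mouse 12_1 and WT estrus mouse 3_2 had the highest and the lowest sterol list mean of all mice. In mouse 12_1, 20 of 21 sterol genes exceeded every other KO estrus mouse, where 22.6% of all genes did. A further 22.7% of all genes were below every other KO estrus mouse, and the quality weight of mouse 12_1 was 0.392. Mouse 12_1 had a median sterol gene difference of 0.62 log2 units above the median of the other KO estrus mice. Its Hmgcs1 was 8.68 (next highest 7.57), Idi1 5.32 (4.00), Nsdhl 5.55 (4.81) and Stard4 4.96 (4.14), while its Srebf1, at 3.34, was the lowest of the KO estrus mice. In mouse 3_2, 18 of 21 sterol genes were below every other WT estrus mouse, where 14% of all genes were, with a median of -0.39. The fatty acid genes took less part, with 4 of 10 above the other mice in 12_1 and 5 of 10 below in 3_2. This is a description of animals chosen for their sterol values, so high shares of sterol genes beyond the other mice were likely beforehand. Without mice 12_1 and 3_2, 9 members were called between WT stages and 19 between KO stages.

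Genes around the synthesis pathway are given by list. In KO diestrus against proestrus, where 14.9% of all genes were higher and 19.4% lower, none of 10 sterol efflux genes was higher and 5 were lower (median -0.32), among them Abca1 (-0.53 ± 0.16, FDR = 0.00947) and Abcg1 (-0.41 ± 0.08, FDR = 0.000142), the transporters that load cholesterol onto lipoproteins. Of 10 genes of sterol uptake and endosomal handling, 7 were lower (median -0.52), among them Lrp8 (-0.63 ± 0.13, FDR = 0.000145), a lipoprotein receptor, and Scarb2 (-0.73 ± 0.12, FDR = 1.48e-05), a lysosomal membrane protein. Of 6 SREBP processing genes 4 were lower (median -0.52), including Scap (-1.09 ± 0.15, FDR = 1.25e-06), which escorts SREBPs to the Golgi. Other fatty acid synthesis genes were mixed, with 3 of 20 higher and 5 lower, and the elongases Elovl1 (-1.14 ± 0.15, FDR = 7.26e-07) and Elovl7 (-0.92 ± 0.22, FDR = 0.00106) were among the lower. Of 11 fatty acid oxidation genes 5 were higher and none lower (median 0.24), including the mitochondrial dehydrogenases Acadvl (0.55 ± 0.12, FDR = 0.000485) and Etfdh (0.42 ± 0.10, FDR = 0.00126). In WT diestrus against estrus, where 9.05% of all genes were higher and 13.1% lower, the same lists gave 4, 5, 4 and 5 genes lower and none higher for efflux, uptake, SREBP processing and other fatty acid synthesis, and 4 oxidation genes higher and none lower. These pairs share the young diestrus mice and the oligodendrocyte marker difference given above.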

How the data were processed

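Dorsal hippocampal RNA of 55 mice, one library per mouse, came from cleared NP-40 lysates and poly-A primed cDNA. The authors aligned reads to GRCm38 with STAR 2.7.9a and deposited counts of uniquely aligned, unambiguous reads per gene from featureCounts 2.0.3. The authors also deposited log2 CPM values, which the values computed here match within 1e-13 over 16166 genes.

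Of 55774 lines in the count table, 287 repeated a gene ID and were dropped, and 1 column without a labeled sample was not used. Genes over 1 CPM in at least 10 libraries, with 5 ribosomal RNA genes left out, gave 16168 genes for testing. As in the study, counts were TMM-scaled and fitted with voom with quality weights and limma 3.58.1 (R 4.3.3) as 10 group means over all mice, with Benjamini-Hochberg adjustment over all genes tested and FDR under 0.05. Each mouse is 1 replicate, and the labels name no litter. Log2 CPM values are voom's and SE is limma's. The numbers of genes called here were not all the same as those in the paper.

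Alternatives were edgeR 4.0.16 and DESeq2 1.42.0 on the counts, no quality weights, RLE scaling, no filter, age or oligodendrocyte markers as covariate, subsets of mice, and leaving out each mouse. Genes given by mouse were the 6 sterol and 4 fatty acid members with the smallest FDR over 12 stage pairs, and up to 2 called genes of each other lipid list, of which 1 is not reported here. Stard4 in estrus was shown by mouse after its call was seen. The members and lists were chosen with earlier results of these data known. A transcript-level table was not used here.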

Additional observations from a re-analysis of the deposited data

Results flagged for a closer look

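Each group of 4 to 7 mice was screened for a mouse separated from the others by most of the group's range (Dixon's criterion at 95%) in 12 measures, the means of both lists and the 10 genes given by mouse. Chance alone sets apart about 1 in 20 groups, 6 of the 120 tests, and 16 were found.

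In the sterol list mean, as a deviation in log2 CPM, WT estrus mouse 3_2 was at -0.505 (next lowest -0.111), KO estrus mouse 12_1 at 0.691 (next highest 0.0452) and KO proestrus mouse 14_1 at 0.127 (next highest -0.0532). KO estrus mouse 12_1 was also apart in log2 CPM of Hmgcs1 (8.68), Idi1 (5.32), Nsdhl (5.55), Acly (7.25) and Elovl6 (6.32). WT estrus mouse 3_2 was apart in Hmgcs1 (6.68).

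KO male 2590 was low in the fatty acid list mean (-0.344, next lowest -0.0395) and in Hmgcs1 (6.78, next lowest 7.41). WT proestrus mouse 8_2 had the lowest Idi1 of all mice, 1.31 against 3.56 in the next WT proestrus mouse. Tm7sf2 was low in WT proestrus mouse 2_3 (3.09) and WT male 1949 (2.73), Srebf1 was high in KO proestrus mouse 12_4 (4.59), and Acly was high in WT diestrus mouse 380_4 (7.14).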

How the results depend on the processing

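The numbers of members called were, in order, for WT stages, KO stages, WT stages against males, KO stages against males, KO against WT within strata, and all KO against all WT: 11, 19, 0, 9, 1 and 3. With edgeR they became 0, 2, 0, 2, 1 and 0, with DESeq2 0, 6, 0, 3, 1 and 0, and without quality weights 0, 4, 0, 2, 1 and 0. With RLE scaling the KO against WT count within strata became 0, and with no filter on low counts (more genes tested) the counts were 7, 11, 0, 4, 0 and 0. With age as a covariate they were 3, 11, 0, 0, 0 and 0, with the oligodendrocyte markers 0, 1, 0, 3, 0 and 0, and without the diestrus mice under 14 weeks (fewer mice) 0, 2, 0, 1, 0 and 0. Among mice of Cnih3-cross parents alone, WT metestrus, proestrus and estrus hold 1 mouse each and are assumed to vary like the other groups. Counts of called members from that fit are therefore not given. Without KO estrus mouse 12_1 and WT estrus mouse 3_2, a choice made after seeing the data, the KO against WT count within strata was 0.

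By pair, WT diestrus against proestrus, WT diestrus against estrus, KO diestrus against proestrus, KO diestrus against estrus and KO diestrus against males held 4, 11, 15, 8 and 9 called members. They held 0, 0, 2, 0 and 2 with edgeR, 0, 0, 6, 0 and 3 with DESeq2, 0, 0, 4, 0 and 2 without quality weights, 0, 7, 10, 1 and 4 with no filter, 1, 2, 11, 0 and 0 with age, 0, 0, 1, 0 and 0 with the oligodendrocyte markers, and 0 in all without the young diestrus mice. The causes of these changes were not tested, and with edgeR the number of calls over all genes changed as well.

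Leaving out each mouse in turn gave 0 to 22 members between WT stages, 13 to 21 between KO stages, 0 to 9 between WT stages and males, 6 to 13 between KO stages and males, 0 to 2 between KO and WT, 0 to 6 for all KO against all WT, and 0 to 0 for differences between genotypes. By pair, in the order above, the ranges were 0 to 12, 0 to 20, 9 to 16, 3 to 9 and 6 to 11. WT stages against males reached 9 without WT male 1949, and 3 to 8 without WT males 2015 and 19_1 or diestrus mice 8_1, 2_2 and 380_4 (WT). WT diestrus against proestrus held 1 call without WT proestrus mouse 4_1, 12, 10 and 11 without diestrus mice 8_1, 2_2 and 380_4 (WT), 0 without 548, 549 or 569, and 2 without any one of 17 other mice. KO diestrus against estrus held 3 calls without KO estrus mouse 9_1 and 4 without KO estrus mouse 12_2 or KO diestrus mouse 532, 643 or 645, and KO diestrus against proestrus held 9 without KO proestrus mouse 12_5. All KO against all WT held 0 calls without KO proestrus mouse 12_5, 6 without WT diestrus mouse 549, and 5 without WT male 19_1, 1949 or 2052, WT estrus mouse 2_1, WT proestrus mouse 20_2, WT diestrus mouse 380_4, 548 or 569, or KO diestrus mouse 644. The calls of Nsdhl, Acat2 and Scd2 in WT diestrus against estrus were lost without mouse 548, 549 or 569. No paired analysis was possible because no mouse ID occurs in more than 1 group, and the labels do not say what the first part of an ID, which some mice of different groups share, stands for. Depth limits Fdps most, with 37 to 150 counts per library, while every other member had at least 91.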
